A study of Mus musculus with 12 samples.

Results

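The genes described here are 34 proliferation genes, of 50600 annotated genes counted in mouse aorta. They are 26 mitotic genes, which act from chromosome condensation to the separation of daughter cells, and 8 replication genes, namely the 6 helicase subunit genes Mcm2 to Mcm7, the sliding clamp gene Pcna and Rrm2, a subunit of the enzyme that makes deoxynucleotides. Membership was by gene symbol from a list of proliferation genes. All 34 were found once in the deposited counts and all 34 passed the filter on low counts, which kept 24660 genes. RNA sequencing was done on the descending thoracic aorta, the stretch from the left subclavian artery to the diaphragm, with 12 libraries in all. Every mouse carried the genotype Elastin +/- on the C57BL/6J strain, so each had 1 working copy of the gene for elastin, the elastic protein of the arterial wall, and wild-type aorta was not analysed here. The off-drug group (n = 4) drank minoxidil, a vasodilator that opens potassium channels of smooth muscle, for 2 weeks from 2.5 months of age and then drug-free water for 1 week. The on-drug group (n = 4) drank minoxidil for the same 2 weeks and was sampled on the drug, and the control group (n = 4) drank plain water. The labels give an age of 3 months for all 3 groups.

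Dividing cells copy their DNA in S phase, when the MCM helicase unwinds it and PCNA holds the polymerases on it, and separate it in mitosis, when cyclin B with CDK1 starts division, kinetochores and motors move chromosomes, and anillin and its partners split the cell. Replication genes are switched on by E2F factors at the G1 to S boundary. Mitotic genes are switched on later, by the MuvB complex with B-MYB and FOXM1, through a promoter element called the cell cycle homology region (CHR). Cells of the adult aortic wall divide rarely.

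Promoter sequences are given because the 2 classes are known to be switched on through different elements. The RefSeq promoter table (GRCm38.p6, 250 bases before to 50 bases after each start) held 29 of the 34 members, 22 mitotic and 7 replication genes. Tpx2, Ccna2, Aurkb, Kif20a and Mcm4 were not matched. The stretches below, each written 5′ to 3′ on the gene's own strand, are shown for 6 mitotic genes that were lower off drug than on drug and for 2 replication genes that were not called in that comparison. They lie at chr9:70421535-70421654 on the minus strand (Ccnb2), chr1:189688067-189688186 minus (Cenpf), chr7:80294351-80294470 plus (Prc1, the first of 2 promoters in the table), chr11:99024170-99024289 minus (Top2a), chr19:37376282-37376401 plus (Kif11), chr7:135716420-135716509 minus (Mki67), chr1:128359726-128359825 minus (Mcm6) and chr8:75109329-75109428 plus (Mcm5). Capitals mark CHR letters (TTTGAA or TTCGAA) and E2F letters (TTCCCGC or TTGGCGC or TTCGCGC or TTGCCGC), read on either strand.
Ccnb2: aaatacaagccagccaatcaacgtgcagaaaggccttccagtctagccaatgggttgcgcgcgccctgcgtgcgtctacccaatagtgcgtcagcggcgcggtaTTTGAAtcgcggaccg
Cenpf: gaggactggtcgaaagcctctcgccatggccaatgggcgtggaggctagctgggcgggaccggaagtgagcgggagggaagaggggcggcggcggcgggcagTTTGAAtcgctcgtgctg
Prc1: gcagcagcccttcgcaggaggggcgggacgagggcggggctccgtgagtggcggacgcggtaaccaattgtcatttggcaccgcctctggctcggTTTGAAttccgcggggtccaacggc
Top2a: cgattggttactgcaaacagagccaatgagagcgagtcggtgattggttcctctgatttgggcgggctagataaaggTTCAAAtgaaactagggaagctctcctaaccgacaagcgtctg
Kif11: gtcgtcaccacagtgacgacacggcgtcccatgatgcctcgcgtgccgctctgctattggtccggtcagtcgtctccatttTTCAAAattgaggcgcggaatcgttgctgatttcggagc
Mki67: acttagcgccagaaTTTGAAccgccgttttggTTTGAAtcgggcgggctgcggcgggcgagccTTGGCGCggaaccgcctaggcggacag
Mcm6: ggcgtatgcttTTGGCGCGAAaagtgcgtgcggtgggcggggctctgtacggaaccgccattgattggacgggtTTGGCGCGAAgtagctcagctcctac
Mcm5: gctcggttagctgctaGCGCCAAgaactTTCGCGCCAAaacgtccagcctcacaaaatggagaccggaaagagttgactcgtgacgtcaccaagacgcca
In the first 5 stretches the capitals are CHR letters alone. The Mki67 stretch holds CHR letters at 2 places and E2F letters at 1, and in Mcm6 and Mcm5 the capitals are E2F letters, some of which overlap each other. CHR letters stood in the promoters of 18 of 22 mitotic genes (81.8%) and of 2 of 7 replication genes (28.6%, Mcm2 and Mcm7), against 21.7% of all 27025 genes in the table. E2F letters stood in 4 of 22 mitotic genes (18.2%, Mki67, Ccnb1, Cdk1 and Ect2) and in 5 of 7 replication genes (71.4%, Mcm3, Mcm5, Mcm6, Mcm7 and Rrm2), against 10.9% of all genes. The CCAAT box (CCAAT), bound by NF-Y, stood in 19 of 22 mitotic genes and 7 of 7 replication genes, against 41.1% of all genes. Of the mitotic genes with CHR letters, 14 of 18 were lower off drug than on drug, and of those without, 3 of 4 (Ccnb1, Cenpe and Birc5) were. A match to these letters is a description of the sequence and was not tested for binding.

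**Figure D1:**
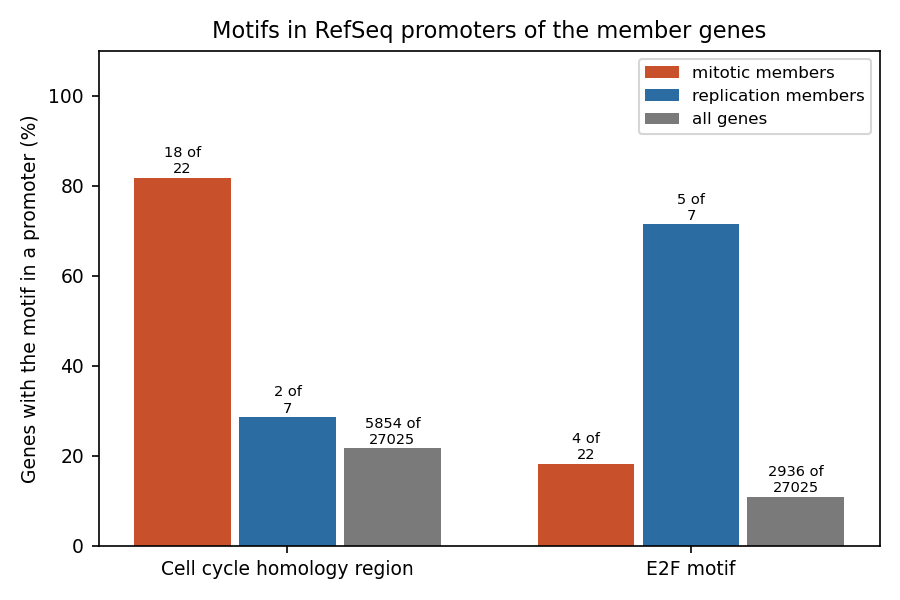
Share of genes, in percent, with cell cycle homology region letters and with E2F letters in the RefSeq promoter, for mitotic members, replication members and all genes of the table, with the counts over the bars. CHR letters were in 18 of 22 mitotic members and E2F letters in 5 of 7 replication members.

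Totals ran from 41524501 counts (on-drug replicate 3) to 109423243 counts (on-drug replicate 1), and smooth muscle genes were among the highest in every library (Acta2, smooth muscle actin, 7007 to 9861 CPM), as the labelled tissue should have. CPM here are counts relative to the library size after TMM scaling. Per length, as CPM divided by gene length in kilobases (RPKM, mean ± SD over the 12 libraries), levels ran from 17.2 ± 1.07 for Pcna, 12.9 ± 1.22 for Mcm6 and 9.32 ± 2.63 for Anln down to 0.128 ± 0.063 for Cenpf, and 6 of the 8 replication genes were among the 9 highest members. The order of close neighbours, such as Mcm7 (3.30 ± 0.38 RPKM) and Mcm4 (3.29 ± 0.54 RPKM), was within their spread. The lowest count of any member was 7, for Birc5 in off-drug replicate 1, so that counting error weighs on the lowest genes.

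The 3 groups were compared in pairs, and the 3 comparisons share libraries. Off drug against on drug, 19 of the 26 mitotic genes fell and 0 rose, with a median log2 fold change of -0.90, while 1 of the 8 replication genes rose (Mcm4) and 0 fell, with a median of 0.12. A call is an adjusted p below 0.05 in edgeR's quasi-likelihood test, Benjamini-Hochberg adjusted over all 24660 genes. Of those genes, 12.4% were called in this comparison (6.92% fell and 5.44% rose), and their median log2 fold change was -0.00. Log2 fold changes of the mitotic genes ran from -1.69 to 0.03, and 25 of 26 were negative. In 18 of the 26 every off-drug library lay below every on-drug library, against 9.37% of all genes. At an unadjusted p below 0.05, 23 mitotic genes were lower and 0 higher, where 13.4% of all genes were lower and 12.2% higher. DESeq2 called 20 mitotic genes lower and 0 higher, and 8.91% of all genes lower and 7.19% higher. Limma-voom called 19 mitotic genes lower and 0 higher, and 8.51% of all genes lower and 6.85% higher. Among replication genes 2 were lower and 2 higher at an unadjusted p below 0.05, and both DESeq2 and limma-voom called 2 lower (Mcm7 and Rrm2).

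Against controls the off-drug aortas had 9 mitotic genes lower and 0 higher (median log2 fold change -0.55), and 1 replication gene higher (Mcm4) and 0 lower (median 0.18). Of all genes tested, 12% were called (5.77% fell and 6.27% rose), with a median of -0.01. The 9 were Top2a, Ccnb1, Ccnb2, Bub1, Bub1b, Kif11, Birc5, Prc1 and Anln. In 7 of the 26 mitotic genes every off-drug library lay below every control, against 7.73% of all genes, and in 3 of the 8 replication genes every off-drug library lay above every control, against 9.20% of all genes. At an unadjusted p below 0.05, 14 mitotic genes were lower and 0 higher, and 4 replication genes were higher and 0 lower, where 12.4% of all genes were lower and 13.4% higher. DESeq2 called 11 mitotic genes lower and 2 replication genes higher, and 7.90% of all genes lower and 7.87% higher. Limma-voom called 9 mitotic genes lower and 1 replication gene higher, and 5.80% of all genes lower and 6.25% higher. Both called 0 mitotic genes higher and 0 replication genes lower. Scaled by library size alone, 68.9% of the calls over all genes were higher, against 52.1% with TMM, and 2 members were higher and 7 lower.

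On-drug aortas had 5 mitotic genes higher than controls and 0 lower (median log2 fold change 0.43), and 0 of 8 replication genes called in either direction (median 0.11). Of all genes tested, 7.07% were called (4.13% rose and 2.94% fell), with a median of 0.00. The 5 were Cenpa, Cenpe, Cenpf, Tpx2 and Prc1. In 11 of the 26 mitotic genes every on-drug library lay above every control, against 6.30% of all genes, and in 1 (Bub1b) every on-drug library lay below, against 6.01%. At an unadjusted p below 0.05, 14 mitotic genes were higher and 1 was lower, and 1 replication gene (Rrm2) was higher, where 12% of all genes were higher and 10.6% lower. DESeq2 called 9 mitotic genes and Rrm2 higher, and 1 mitotic gene lower, and of all genes it called 5.98% higher and 5.56% lower. Limma-voom called 4 mitotic genes higher and 0 lower, and 4.11% of all genes higher and 2.98% lower. Scaled by library size alone, 72.8% of the calls over all genes were higher, against 58.4% with TMM, and 5 members were higher and 0 lower.

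The calls depend on single libraries to different degrees. Off drug against on drug the count of 19 mitotic genes stayed between 14 (without on-drug replicate 3) and 19 when each library was left out in turn. Against controls the 9 mitotic genes lower off drug became 3 without control replicate 2, 3 without control replicate 3, 4 without off-drug replicate 1 and 5 without off-drug replicate 4, and 12 without control replicate 1. The 5 mitotic genes higher on drug became 1 (Cenpf) without on-drug replicate 3 and 3 without control replicate 3 or control replicate 4. The 1 replication gene higher off drug than in controls became 3 without control replicate 1, and 2 without off-drug replicate 4 or on-drug replicate 1. The count of 0 replication genes called became 1 on drug against control without control replicate 3, and 1 lower off drug against on drug without off-drug replicate 1 or on-drug replicate 1. On-drug replicate 3, the shallowest library, had the highest CPM of its group in 18 of 26 mitotic genes, off-drug replicate 4 had the lowest of its group in 19 of 26, and control replicate 1 had the lowest of the controls in 15 of 26.

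**Figure D2:**
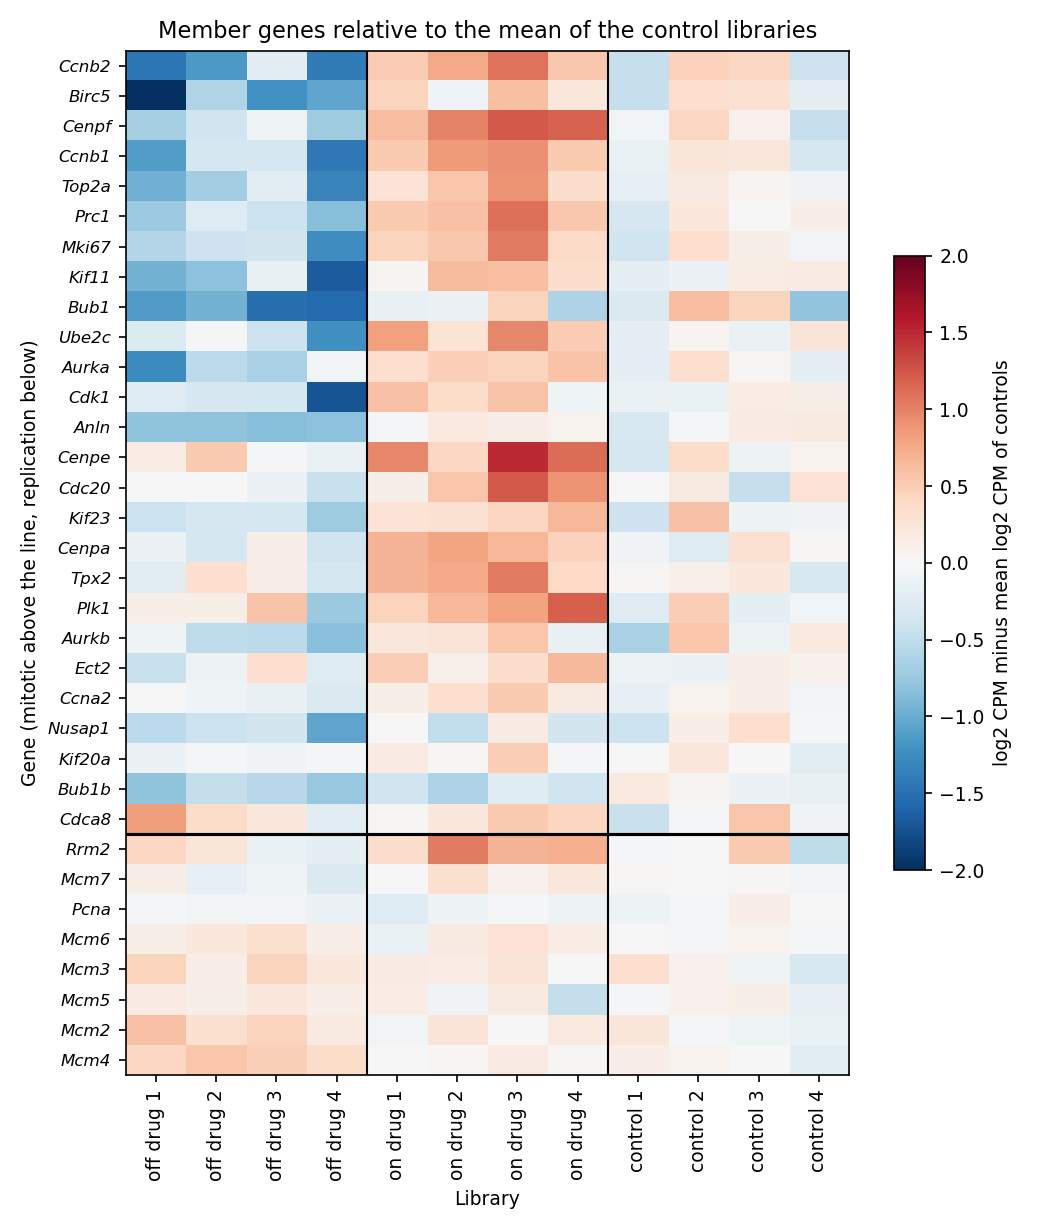
Log2 CPM of each member (rows, mitotic above the line and replication below, ordered by log2 fold change off drug against on drug) in each library (columns), minus its mean in the 4 controls. In 18 of the 26 mitotic rows every cell of the left block (off drug) is lower than every cell of the middle block (on drug).

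**Figure D3:**
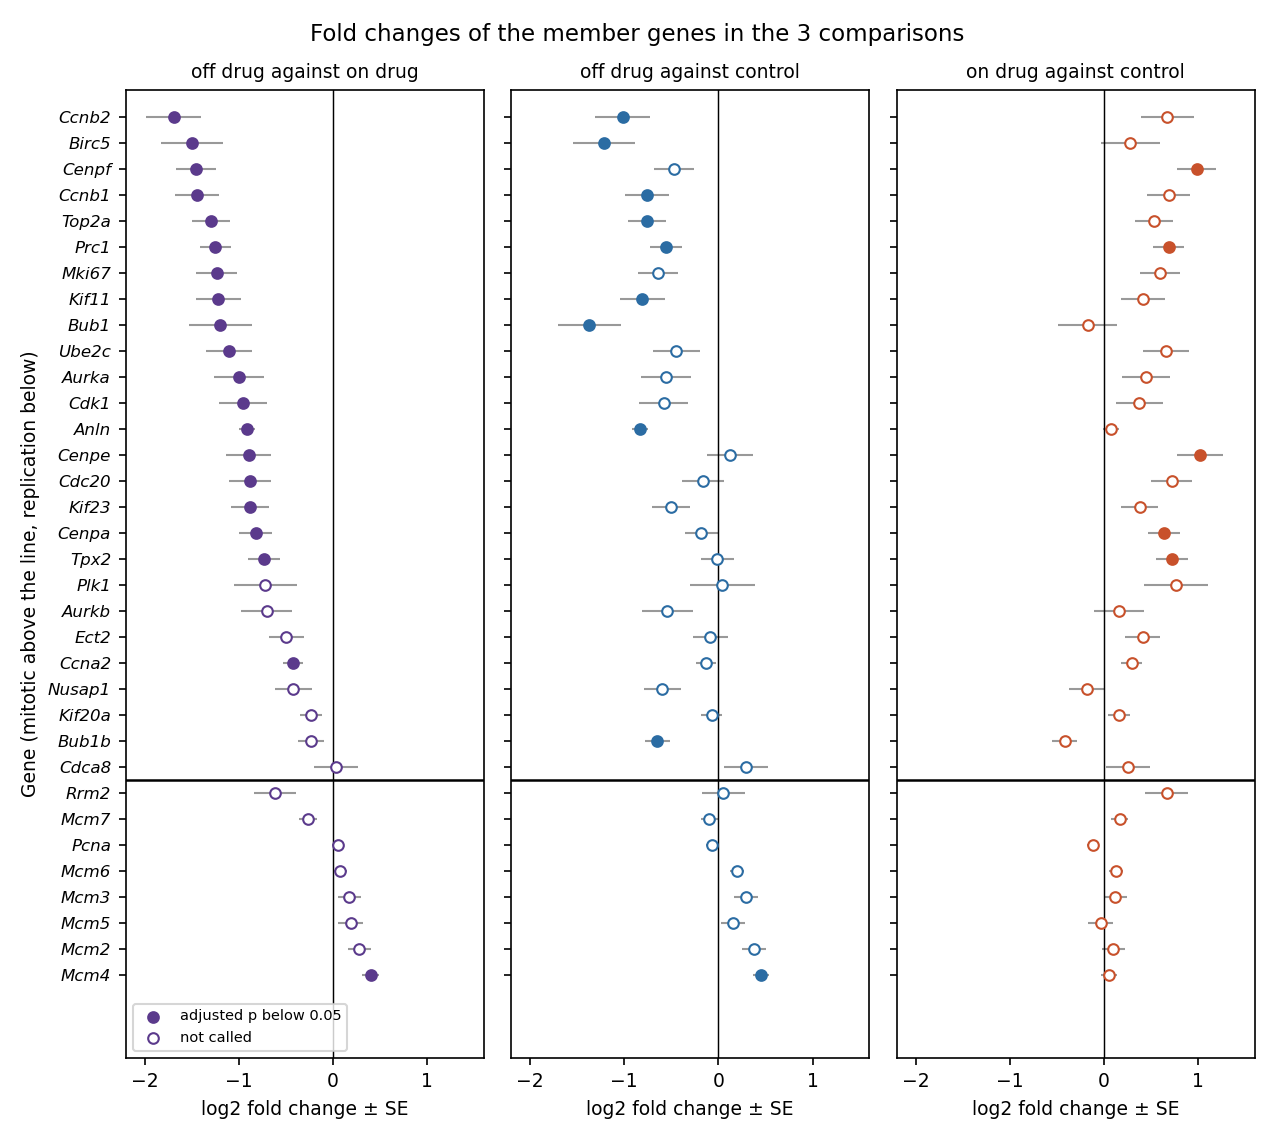
Log2 fold change ± SE of each member in the 3 comparisons (n = 4 libraries a group), with filled points for an adjusted p below 0.05. Filled points are 19 mitotic genes and Mcm4 off drug against on drug, 9 mitotic genes and Mcm4 off drug against control, and 5 mitotic genes on drug against control.

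In group means 20 of the 26 mitotic genes were highest on drug, intermediate in controls and lowest off drug. Bub1, Bub1b and Nusap1 were highest in controls and lowest off drug, Cenpe and Plk1 were highest on drug and lowest in controls, and Cdca8 was highest off drug and lowest in controls. Of the replication genes only Mcm7 had the order of the 20, and Mcm2, Mcm3, Mcm4 and Mcm6 were highest off drug and lowest in controls. Many of these orders rest on differences within the spread of the libraries. As these are bulk samples, fewer dividing cells and less of each RNA per cell cannot be told apart.

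The class as a whole was summarised as the mean log2 CPM of its genes in each library. For the mitotic genes it was 0.74, 0.96, 0.99 and 0.48 in off-drug libraries, 1.61, 1.63, 1.96 and 1.64 in on-drug libraries and 1.06, 1.48, 1.38 and 1.21 in controls. Every off-drug library lay below every control and every control below every on-drug library. For the replication genes it was 3.59, 3.48, 3.52 and 3.37 off drug, 3.34, 3.54, 3.52 and 3.41 on drug and 3.39, 3.33, 3.40 and 3.14 in controls. These ranges overlap. The mitotic mean minus the replication mean was -2.70 ± 0.20 off drug, -1.74 ± 0.14 on drug and -2.04 ± 0.21 in controls (SD, n = 4 each). It ran from -2.89 to -2.52 off drug, from -1.91 to -1.56 on drug and from -2.33 to -1.86 in controls, so that the off-drug range overlaps neither of the others, while the on-drug and control ranges overlap. This difference between the classes was lower by 0.96 off drug than on drug and by 0.66 off drug than in controls, and 0.30 higher on drug than in controls. It carries no test, since the members were chosen with results of these data known.

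**Figure D4:**
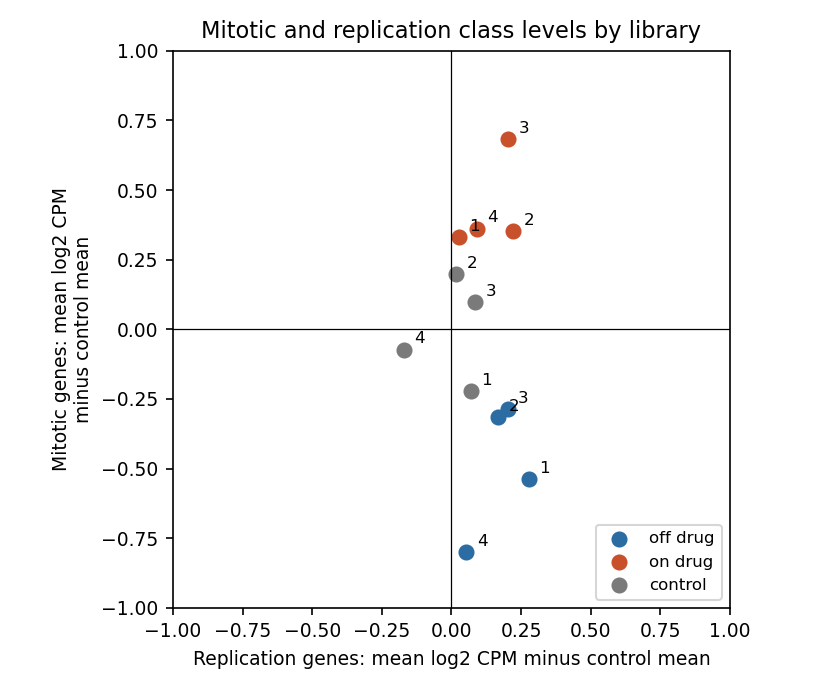
Mean log2 CPM of the 26 mitotic genes (vertical) and of the 8 replication genes (horizontal) in each of 12 libraries, each minus its mean in controls, on equal scales, with replicate numbers beside the points. The groups separate on the vertical axis (off drug below, on drug above) and overlap on the horizontal one.

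Chromosome structure and the proliferation marker come first among the mitotic genes. Mki67 codes for Ki-67, which coats mitotic chromosomes and is the usual stain for cycling cells. It had 6.64, 7.47, 7.7 and 4.23 CPM in off-drug libraries, 13.5, 14.4, 20.4 and 13 in on-drug libraries and 7.54, 12.6, 10.8 and 9.56 in controls. Every off-drug library lay below every on-drug library, while off-drug replicate 3 lay above control replicate 1. Mki67 was 2.35-fold lower off drug than on drug (log2 fold change -1.23 ± 0.22, SE, adjusted p = 0.00263). It was not called off drug against control (-0.64 ± 0.22, adjusted p = 0.0778) or on drug against control (0.59 ± 0.21, adjusted p = 0.12). Off drug against control it was called lower in 6 of 21 other settings, DESeq2 and limma-voom among them (adjusted p 0.0063 to 0.198 over the 21), and DESeq2 also called it higher on drug than in controls. Top2a codes for topoisomerase II alpha, which untangles sister DNA before it is pulled apart. It had 4.68, 5.6, 7.75 and 3.61 CPM in off-drug libraries, 11.1, 13.4, 16.9 and 11.6 in on-drug libraries and 8.11, 10.3, 9.44 and 8.71 in controls. The off-drug libraries were the lowest of the 12, and the on-drug libraries the highest. Its log2 fold change was -1.29 ± 0.20 off drug against on drug (adjusted p = 0.0010), -0.76 ± 0.20 off drug against control (adjusted p = 0.0284) and 0.53 ± 0.20 on drug against control (adjusted p = 0.13, not called). DESeq2 called Top2a higher on drug than in controls (adjusted p = 0.0340). So did edgeR with only the compared groups, with the replicate block and without off-drug replicate 3 (adjusted p 0.0225 to 0.0412).

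Cyclin B1 (Ccnb1), cyclin B2 (Ccnb2) and CDK1 form the kinase that starts mitosis. Ccnb1 had 0.817, 1.39, 1.4 and 0.657 CPM in off-drug libraries, 2.55, 3.21, 3.34 and 2.56 in on-drug libraries and 1.62, 2.11, 2.08 and 1.42 in controls. Its off-drug libraries lay below all others. Off drug against on drug its log2 fold change was -1.45 ± 0.23 (adjusted p = 0.000353), and off drug against control -0.76 ± 0.23 (adjusted p = 0.0415). Ccnb2 showed the most negative log2 fold change of the members off drug against on drug. It had 0.49, 0.60, 1.14 and 0.505 CPM in off-drug libraries, 1.9, 2.25, 2.83 and 1.94 in on-drug libraries and 0.964, 1.83, 1.78 and 0.996 in controls. Off-drug replicate 3 stood above the other off-drug libraries and within the control range. Ccnb2 was 3.23-fold lower off drug than on drug (-1.69 ± 0.29, adjusted p = 0.000644) and 2.03-fold lower off drug than in controls (-1.02 ± 0.29, adjusted p = 0.0283). Cdk1 had 1.52, 1.45, 1.43 and 0.552 CPM in off-drug libraries, 2.75, 2.35, 2.71 and 1.73 in on-drug libraries and 1.68, 1.66, 2.03 and 1.99 in controls. Off-drug replicate 4 was far below the other off-drug libraries, and the remaining ones lay just below the controls. Cdk1 fell off drug against on drug (-0.96 ± 0.26, adjusted p = 0.0181) and was not called off drug against control (-0.58 ± 0.26, adjusted p = 0.157). The call off drug against on drug was lost without on-drug replicate 1 or on-drug replicate 3 (highest adjusted p 0.0564). Cyclin A2 (Ccna2), which acts from S phase to early mitosis, fell off drug against on drug by 0.43 on the log2 scale (adjusted p = 0.0117), and 12.5% of its exon bases overlap Exosc9 on the other strand. None of the 4 was called on drug against control, where log2 fold changes were 0.69 ± 0.23 (Ccnb1), 0.67 ± 0.28 (Ccnb2), 0.37 ± 0.25 (Cdk1) and 0.29 ± 0.11 (Ccna2), with unadjusted p below 0.05 for all but Cdk1. Ccnb1 was called higher there in 4 of 21 other settings, DESeq2 among them.

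The centromere and kinetochore genes Cenpf, Cenpa and Cenpe held 3 of the 5 calls on drug against control. The checkpoint genes Bub1 and Bub1b had negative log2 fold changes there (-0.17 ± 0.32 and -0.42 ± 0.13), and neither was called. Cenpf, a kinetochore protein that builds up in G2, had 0.98, 1.19, 1.47 and 0.952 CPM in off-drug libraries, 2.39, 3.1, 3.65 and 3.52 in on-drug libraries and 1.51, 2.08, 1.66 and 1.14 in controls. Every on-drug library was above all 8 others, and the off-drug and control libraries overlapped. Cenpf was 1.98-fold higher on drug than in controls (0.98 ± 0.21, adjusted p = 0.00827) and 2.74-fold lower off drug than on drug (-1.45 ± 0.21, adjusted p = 0.000126). Cenpa, the histone variant that marks centromeres, had 1.74, 1.47, 2.08 and 1.44 CPM in off-drug libraries, 3.01, 3.27, 2.99 and 2.61 in on-drug libraries and 1.8, 1.57, 2.34 and 1.92 in controls. Its on-drug libraries too lay above all others, and its off-drug and control libraries were intermingled. Cenpa rose on drug against control (0.64 ± 0.17, adjusted p = 0.0295) and fell off drug against on drug (-0.82 ± 0.17, adjusted p = 0.00314), and off drug against control it was not called (-0.18 ± 0.17, adjusted p = 0.557). Cenpe, a kinetochore motor, rose on drug against control (1.02 ± 0.25, adjusted p = 0.0171) and fell off drug against on drug (-0.90 ± 0.24, adjusted p = 0.0192).

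The spindle checkpoint kinases BUB1 and BUBR1 (Bub1b) hold anaphase back until chromosomes are attached, and both genes had their highest group mean in controls. Bub1b had 2.67, 3.35, 3.18 and 2.77 CPM in off-drug libraries, 3.55, 3.04, 3.95 and 3.54 in on-drug libraries and 5.36, 4.87, 4.33 and 4.23 in controls. The controls were the highest 4 of the 12 libraries, and the off-drug and on-drug libraries overlapped. Bub1b fell off drug against control (-0.65 ± 0.13, adjusted p = 0.00333) and was not called off drug against on drug (-0.23 ± 0.13, adjusted p = 0.299) or on drug against control (-0.42 ± 0.13, adjusted p = 0.0639). DESeq2, and edgeR with the stricter filter, called it lower on drug than in controls. Bub1 fell off drug against control (-1.37 ± 0.33, adjusted p = 0.0103) and off drug against on drug (-1.20 ± 0.33, adjusted p = 0.0224), with on drug against control at -0.17 ± 0.32 (adjusted p = 0.811).

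Of the spindle kinase and motor genes, Aurka, Kif11 and Kif23 were called lower off drug than on drug, and Aurkb, Plk1 and Kif20a were not called. Kif11 codes for the motor that pushes spindle poles apart, and had 1.43, 1.57, 2.5 and 0.876 CPM in off-drug libraries, 2.88, 4.27, 4.21 and 3.54 in on-drug libraries and 2.41, 2.56, 3.07 and 3.09 in controls. Every off-drug library lay below every on-drug library, and off-drug replicate 3 lay within the controls. Kif11 fell off drug against on drug (-1.22 ± 0.24, adjusted p = 0.00223) and off drug against control (-0.81 ± 0.24, adjusted p = 0.0355). Birc5 codes for survivin, of the chromosomal passenger complex, and had 0.127, 0.55, 0.359 and 0.40 CPM in off-drug libraries, 1.14, 0.784, 1.26 and 0.963 in on-drug libraries and 0.606, 1.05, 1.03 and 0.729 in controls. Its off-drug libraries were the lowest 4, with the on-drug and control ranges overlapping. Birc5 was 2.82-fold lower off drug than on drug (-1.50 ± 0.33, adjusted p = 0.00492) and 2.32-fold lower off drug than in controls (-1.22 ± 0.33, adjusted p = 0.0219), with 7 counts in its lowest library. Its partners Aurkb and Cdca8 in that complex were not called in any comparison. The kinase gene Aurkb had 0.871, 0.65, 0.64 and 0.514 CPM in off-drug libraries, 1.07, 1.1, 1.36 and 0.831 in on-drug libraries and 0.591, 1.36, 0.855 and 1.05 in controls, ranges that overlap throughout, and a log2 fold change off drug against on drug of -0.70 ± 0.27 (adjusted p = 0.10). Borealin (Cdca8) had the only positive mitotic value off drug against on drug, 0.03 ± 0.23 (adjusted p = 0.954), and its sign turned in 3 of 21 other settings (-0.16 to 0.20). Plk1, a kinase of mitotic entry and one of the lowest members, had 0.363, 0.362, 0.50 and 0.20 CPM in off-drug libraries, 0.459, 0.529, 0.584 and 0.765 in on-drug libraries and 0.28, 0.473, 0.297 and 0.323 in controls. Off-drug replicate 3 lay above on-drug replicate 1, and no comparison was called (off drug against on drug -0.72 ± 0.33, adjusted p = 0.183). Aurka, the kinase of spindle poles, fell off drug against on drug (-1.0 ± 0.26, adjusted p = 0.0164). Tpx2, its activator, fell off drug against on drug (-0.73 ± 0.17, adjusted p = 0.00763) and rose on drug against control (0.72 ± 0.17, adjusted p = 0.0166).

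The anaphase-promoting complex degrades cyclin B with the help of CDC20 and the ubiquitin-conjugating enzyme UBE2C. Ube2c had 0.889, 1.05, 0.794 and 0.457 CPM in off-drug libraries, 1.9, 1.29, 2.08 and 1.53 in on-drug libraries and 0.948, 1.11, 0.978 and 1.28 in controls. All off-drug libraries lay below all on-drug libraries, and off-drug replicate 2 lay among the controls. Ube2c fell off drug against on drug (-1.10 ± 0.25, adjusted p = 0.00558) and was not called off drug against control (-0.45 ± 0.25, adjusted p = 0.277). Of its exon bases 22.8% overlap Tnnc2, a skeletal muscle gene on the other strand, and counting used no strand, so reads of both cannot be told apart. Cdc20 fell off drug against on drug (-0.88 ± 0.22, adjusted p = 0.0123), a call lost without on-drug replicate 3 (adjusted p 0.061). On drug against control Cdc20 was not called (0.72 ± 0.22, adjusted p = 0.0574). DESeq2, edgeR with no filter and edgeR without on-drug replicate 1 called it higher there.

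Cytokinesis genes held the 2 members with the smallest adjusted p off drug against on drug, Anln and Prc1. Anln codes for anillin, which links the contractile ring to the membrane and is the only mitotic member among the 5 highest members per length. It had 55.2, 54.9, 53.3 and 54.3 CPM in off-drug libraries, 93.4, 109.8, 104.7 and 101 in on-drug libraries and 77.1, 94.5, 107 and 109 in controls. The off-drug libraries were tightly grouped and lay below all 8 others, while the on-drug and control ranges overlapped. Anln was 1.88-fold lower off drug than on drug (-0.91 ± 0.09, adjusted p = 2.06e-06) and 1.78-fold lower off drug than in controls (-0.83 ± 0.09, adjusted p = 6.36e-06), and on drug against control it was not called (0.08 ± 0.09, 95% interval -0.12 to 0.27). Prc1 bundles the microtubules of the central spindle, and had 2.34, 3.25, 2.88 and 2.14 CPM in off-drug libraries, 5.55, 5.84, 8.3 and 5.62 in on-drug libraries and 3.06, 4.5, 3.86 and 4.22 in controls. On-drug libraries were all above the controls, with on-drug replicate 3 far above the rest, and off-drug replicate 2 lay above control replicate 1. It was the only member called in all 3 comparisons, with log2 fold changes of -1.25 ± 0.17 off drug against on drug (adjusted p = 6.13e-05), -0.56 ± 0.17 off drug against control (adjusted p = 0.0367) and 0.69 ± 0.17 on drug against control (adjusted p = 0.0174). Of its exon bases 11.1% overlap Rccd1 on the other strand. Kif23, a motor of the central spindle, fell off drug against on drug (-0.88 ± 0.20, adjusted p = 0.00658). Its partner Ect2, which activates RhoA at the division plane, the motor gene Kif20a and Nusap1, which bundles spindle microtubules, were not called by edgeR in any comparison, and their log2 fold changes off drug against on drug were -0.50 ± 0.19 (Ect2), -0.23 ± 0.11 (Kif20a) and -0.42 ± 0.20 (Nusap1). DESeq2 called Ect2 lower in that comparison (adjusted p = 0.0498). Nusap1 was at -0.60 ± 0.19 off drug against control (adjusted p = 0.0527), and was called lower there in 5 of 21 other settings, DESeq2 among them (adjusted p 0.0131 to 0.178 over the 21). Kif20a shares 33.2% of its exon bases with Cdc23 on the other strand.

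Single libraries and settings bear on individual calls. Off drug against control, the calls of Anln, Bub1 and Bub1b held in all fits that left out 1 library. The calls of Top2a, Ccnb1, Ccnb2, Kif11, Birc5 and Prc1 were each lost without control replicate 2 and without control replicate 3, and all but that of Birc5 also without off-drug replicate 1, with highest adjusted p over the other settings of 0.0957 (Top2a), 0.123 (Ccnb1), 0.0938 (Ccnb2), 0.101 (Kif11), 0.0665 (Birc5) and 0.114 (Prc1). Some were lost too without control replicate 4 (Top2a, Kif11, Prc1), off-drug replicate 2 (Top2a, Ccnb2, Kif11), off-drug replicate 3 (Birc5, Prc1), off-drug replicate 4 (Ccnb1, Ccnb2, Kif11, Prc1) or on-drug replicate 2 (Ccnb1). With all libraries kept, that of Ccnb1 was lost with library size alone, a non-robust fit or only the compared groups (adjusted p 0.0508 to 0.0763), that of Prc1 with library size alone or limma-voom (0.0701 and 0.0527), those of Ccnb2 and Kif11 with only the compared groups (0.0556 and 0.0605) and that of Top2a with no filter (0.0957). On drug against control, Cenpf held throughout. Cenpa, Cenpe, Prc1 and Tpx2 were lost without on-drug replicate 3, with highest adjusted p of 0.0923, 0.0764, 0.0842 and 0.0746 over the other settings. Further losses were without control replicates 1, 2 or 4 or on-drug replicate 2 (Cenpa), control replicate 3 (Cenpe, Prc1), on-drug replicate 4 (Cenpe) and control replicate 4 (Tpx2), and limma-voom did not call Cenpe (adjusted p = 0.0501). Off drug against on drug, 13 of the 19 mitotic calls and that of Mcm4 held in all 21 other settings. Apart from Cdk1 and Cdc20, those lost were Aurka without off-drug replicate 1 (adjusted p 0.0502), Ccna2 without off-drug replicate 4 or on-drug replicate 3 (at most 0.0573), and Bub1 and Cenpe without off-drug replicate 3, off-drug replicate 4 or on-drug replicate 3 (at most 0.083).

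The helicase genes load at origins as a ring of 6 subunits. Off drug against on drug 1 of 6 was called higher and 0 lower, where 5.44% of all genes rose and 6.92% fell. Mcm4, the only replication gene called, had 13.8, 15.3, 14.4 and 13.4 CPM in off-drug libraries, 10.4, 10.7, 11.6 and 10.6 in on-drug libraries and 11.4, 10.9, 10.4 and 8.97 in controls. Every off-drug library lay above every other library, and the on-drug and control ranges overlapped. Mcm4 was 1.32-fold higher off drug than on drug (0.40 ± 0.09, adjusted p = 0.00436) and 1.37-fold higher off drug than in controls (0.45 ± 0.09, adjusted p = 0.00217). Mcm2 had 6.95, 5.81, 6.34 and 5.26 CPM in off-drug libraries, 4.48, 5.54, 4.7 and 5.32 in on-drug libraries and 5.52, 4.55, 4.38 and 4.26 in controls. Its off-drug libraries overlapped both other groups. Its log2 fold change off drug against control was 0.38 ± 0.12 (adjusted p = 0.0526, not called), and it was called higher by DESeq2, by library size scaling alone and with the stricter filter. Mcm6 had 60.6, 64.7, 69.8 and 61.5 CPM in off-drug libraries, 51.1, 63.1, 68.1 and 62.1 in on-drug libraries and 55.4, 54.5, 58.4 and 55.1 in controls. Off-drug libraries lay above all controls, and the on-drug libraries spanned both. Mcm6 was not called (off drug against control 0.20 ± 0.07, adjusted p = 0.0941; off drug against on drug 0.07 ± 0.07, 95% interval -0.10 to 0.24). Mcm5 had 6.01, 5.82, 6.16 and 5.83 CPM in off-drug libraries, 5.92, 5.09, 6.08 and 3.84 in on-drug libraries and 5.19, 5.66, 5.81 and 4.77 in controls. The lowest library was on-drug replicate 4, and off drug against on drug the log2 fold change was 0.19 ± 0.13 (95% interval -0.11 to 0.48). Mcm3 was not called either (0.17 ± 0.12 off drug against on drug). Mcm7 alone among the 6 helicase genes had a negative log2 fold change off drug against on drug, of -0.26 ± 0.09 (adjusted p = 0.0697, not called). DESeq2 and limma-voom called Mcm7 lower in that comparison (adjusted p 0.0467 and 0.0259). It overlaps Cops6, Ap4m1 and the microRNA genes Mir25 and Mir93 over 12.6% of its exon bases.

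Pcna, the clamp that tethers polymerases to DNA, had 42.4, 41.3, 41.5 and 39.8 CPM in off-drug libraries, 36, 40.3, 42 and 40.2 in on-drug libraries and 40, 41.9, 47.1 and 43.3 in controls. All 3 ranges overlapped. Its log2 fold changes were 0.06 ± 0.06 off drug against on drug (95% interval -0.09 to 0.20), -0.06 ± 0.06 off drug against control (95% interval -0.21 to 0.08) and -0.12 ± 0.06 on drug against control (95% interval -0.27 to 0.02). Rrm2 had 1.72, 1.52, 1.18 and 1.13 CPM in off-drug libraries, 1.64, 2.62, 2.08 and 2.15 in on-drug libraries and 1.27, 1.3, 1.87 and 0.911 in controls. The off-drug and on-drug ranges overlapped, as did the on-drug and control ranges. Rrm2 had the most negative log2 fold change of the replication genes off drug against on drug (-0.61 ± 0.22, adjusted p = 0.0842, not called) and the most positive on drug against control (0.67 ± 0.23, adjusted p = 0.0838, not called). DESeq2 and limma-voom called Rrm2 lower off drug against on drug (adjusted p 0.0476 and 0.0320). DESeq2 also called it higher on drug against control (adjusted p 0.0384). Off drug against control its log2 fold change was 0.05 ± 0.23 (95% interval -0.46 to 0.57).

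**Figure D5:**
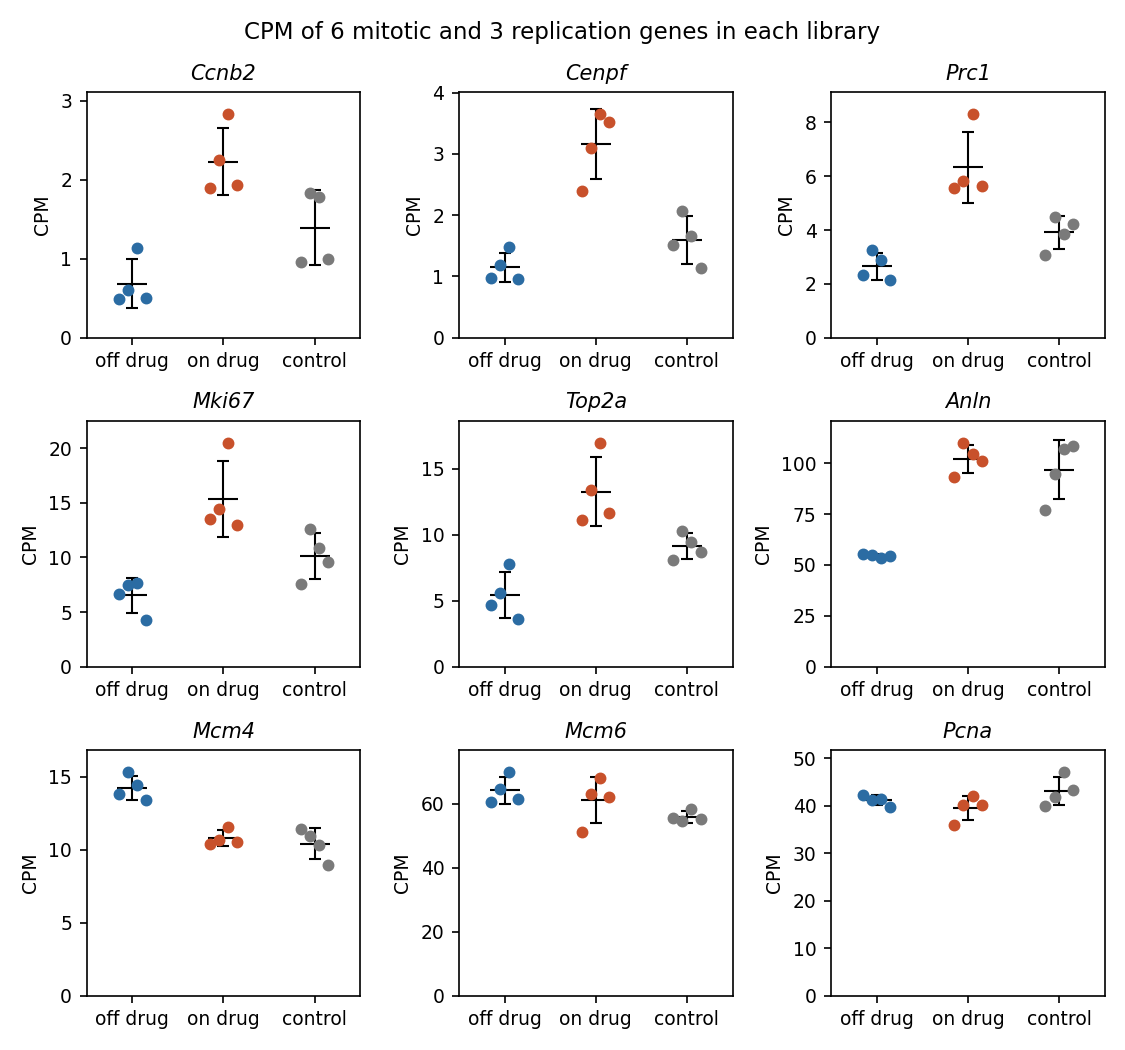
CPM of 6 mitotic genes (Ccnb2, Cenpf, Prc1, Mki67, Top2a, Anln) and 3 replication genes (Mcm4, Mcm6, Pcna) in every library, off drug, on drug and control from left to right, with mean ± SD (n = 4). Off-drug libraries lie below all on-drug libraries in the 6 mitotic genes and above them in Mcm4.

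Other genes of the same pathways, taken from textbook lists, were counted in the same fit. Among 40 other mitotic genes, 16 fell and 1 rose off drug against on drug (median log2 fold change -0.63), 3 fell and 0 rose off drug against control (median -0.25; 1 was higher and 11 were lower at an unadjusted p below 0.05), and 4 rose and 0 fell on drug against control (median 0.33; 17 were higher and 0 lower at an unadjusted p below 0.05). Hmmr, a spindle assembly factor, averaged 0.789 ± 0.293 CPM off drug, 2.67 ± 0.452 on drug and 1.54 ± 0.472 in controls (off drug against on drug -1.76 ± 0.27, adjusted p = 0.000204). Aspm, which focuses spindle poles, averaged 1.55 ± 0.549 CPM off drug, 3.94 ± 0.665 on drug and 2.63 ± 0.259 in controls (-1.34 ± 0.21, adjusted p = 0.000292), and Ckap2l, a spindle protein, 0.672 ± 0.16 CPM off drug, 2.01 ± 0.783 on drug and 1.07 ± 0.141 in controls (-1.57 ± 0.26, adjusted p = 0.000506). The gene that rose was Pttg1, securin, the inhibitor of the enzyme that cuts sister chromatids apart (0.33 ± 0.08, adjusted p = 0.00649). Racgap1, the partner of Kif23, was the clearest of the 4 that rose on drug against control (0.79 ± 0.18, adjusted p = 0.0126).

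Among 17 genes of origin licensing and firing, 2 rose and 0 fell off drug against on drug (Orc2 and Gins4; 3 were higher and 0 lower at an unadjusted p below 0.05), and 2 rose and 0 fell off drug against control (Gins2 and Gins3; also 3 and 0 unadjusted). On drug against control 1 rose (Gins2) and 1 fell (Orc2), with 3 higher and 1 lower at an unadjusted p below 0.05. In each comparison 11.8% of this list were called. Of all genes, 12.4% were called off drug against on drug, 12% off drug against control and 7.07% on drug against control. Gins2, a subunit of the helicase activator, averaged 4.49 ± 0.887 CPM off drug, 4.61 ± 0.457 on drug and 3.02 ± 0.435 in controls. It was higher than in controls both off drug (0.57 ± 0.15, adjusted p = 0.0181) and on drug (0.60 ± 0.15, adjusted p = 0.0219). Among 27 genes of the replication fork and nucleotide supply, 2 rose and 1 fell off drug against on drug, 2 rose and 1 fell off drug against control, and 2 rose and 0 fell on drug against control (edgeR; 3 were higher and 3 lower at an unadjusted p below 0.05 in this last comparison). In the same order, 11.1%, 11.1% and 7.41% of the fork and nucleotide list were called, near the shares of all genes. Rpa1, which coats single-stranded DNA, averaged 47.2 ± 1.36 CPM off drug, 40.4 ± 4.49 on drug and 33.7 ± 1.27 in controls. It was called higher in each comparison (off drug against on drug 0.22 ± 0.07, off drug against control 0.48 ± 0.07, on drug against control 0.26 ± 0.07). Rrm1, the large subunit that pairs with Rrm2, rose off drug against on drug (0.26 ± 0.07, adjusted p = 0.028), and Tk1, thymidine kinase, fell (-0.49 ± 0.12, adjusted p = 0.00814).

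Regulators of entry into the cycle were counted too. Among 28 cyclins, kinases and E2F, RB and MYB family genes of the G1 to S step, 1 rose and 3 fell off drug against on drug. At an unadjusted p below 0.05, 3 were higher and 9 lower there. Off drug against control 1 rose and 0 fell (5 higher and 5 lower unadjusted). On drug against control 2 rose and 0 fell (5 higher and 1 lower unadjusted). In that order 14.3%, 3.57% and 7.14% of this list were called, against 12.4%, 12% and 7.07% of all genes. Cyclin D1 (Ccnd1), which couples growth signals to the cycle, had 26, 23.7, 20.6 and 21.3 CPM in off-drug libraries, 37.4, 38.5, 36.7 and 37.1 in on-drug libraries and 22, 23.2, 22.7 and 23.5 in controls. All on-drug libraries lay above all others, and off-drug libraries lay on either side of the controls. Its log2 fold change was -0.71 ± 0.07 off drug against on drug (adjusted p = 2.81e-06), 0.71 ± 0.07 on drug against control (adjusted p = 1.91e-05) and -0.00 ± 0.07 off drug against control (adjusted p = 0.998, not called). E2f3, an activating E2F, rose on drug against control (0.41 ± 0.12, adjusted p = 0.0457) and fell off drug against on drug (-0.54 ± 0.12, adjusted p = 0.00507). E2f1 averaged 1.45 ± 0.253 CPM off drug, 1.76 ± 0.369 on drug and 1.5 ± 0.192 in controls, and Foxm1, a driver of mitotic genes, 0.784 ± 0.233 CPM off drug, 0.854 ± 0.287 on drug and 0.698 ± 0.174 in controls. Neither was called in any comparison. Among 16 CDK inhibitors and growth arrest genes, 2 rose and 2 fell off drug against on drug, and 1 rose and 4 fell off drug against control. On drug against control 0 rose and 1 fell. The called shares of these genes were 25%, 31.2% and 6.25% in the same order, beside 12.4%, 12% and 7.07% of all genes. Cdkn1a, the inhibitor p21, had 11.9, 9.76, 7.43 and 8.23 CPM in off-drug libraries, 20.3, 16.6, 18.5 and 12.4 in on-drug libraries and 21.9, 17.8, 20.3 and 24.4 in controls. Its off-drug libraries were the lowest 4 of the 12. Cdkn1a fell off drug against on drug (-0.86 ± 0.17, adjusted p = 0.00389) and off drug against control (-1.18 ± 0.17, adjusted p = 0.000549). Cdkn1c, the inhibitor p57, rose off drug against on drug (0.72 ± 0.09, adjusted p = 3.9e-05) and off drug against control (0.61 ± 0.09, adjusted p = 0.00024). Cdkn2b, the inhibitor p15, fell on drug against control (-1.25 ± 0.17, adjusted p = 0.000306).

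Markers of some other cell types moved with the mitotic genes in part. Beside the marker calls below, 12.4% of all genes were called off drug against on drug, 12% off drug against control and 7.07% on drug against control. Summed CPM of 5 endothelial markers were 555 to 717 off drug, 751 to 872 on drug and 588 to 677 in controls, with 3 lower and 0 higher off drug against on drug, 1 lower off drug against control (Tek) and 2 higher on drug against control (Vwf and Cdh5). Summed CPM of 5 macrophage markers were 231 to 258 off drug, 289 to 328 on drug and 263 to 318 in controls, with 3 lower off drug against on drug, 3 lower off drug against control and 1 higher on drug against control. Summed CPM of 5 mast cell markers were 7.24 to 19.4 off drug, 16.6 to 27.7 on drug and 9.0 to 14.6 in controls, with 1 lower off drug against on drug and 2 higher on drug against control. The 7 erythroid markers were all lower off drug than in controls, at 2038 to 4801 summed CPM off drug, 3878 to 6001 on drug and 4925 to 20566 in controls. In the other comparisons 0 of them were called. All 7 had negative log2 fold changes on drug against control (median -0.93), where the median of the mitotic genes was 0.43. The part of these cell types in the fall of the mitotic genes was not tested.

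Lymphocytes can divide too, and their markers were counted. Summed CPM of 5 immature lymphocyte markers (Rag1, Rag2, Dntt, Themis and Ptcra) were 2.27 to 25.0 off drug, 0.712 to 1.43 on drug and 0.785 to 9.64 in controls, with 2 of the 4 that passed the filter (Rag1 and Dntt) higher off drug than on drug and 0 called in the other comparisons. The highest sum was in off-drug replicate 3, which had the highest CPM of its group in 10 of 26 mitotic genes. Without that library 18 mitotic genes were called lower off drug than on drug, and 7 lower off drug than in controls. Ptcra had between 0 and 5 counts in a library. Summed CPM of 5 B cell markers were 3.25 to 10.4 off drug, 4.17 to 18.0 on drug and 2.08 to 4.40 in controls. Summed CPM of 5 T cell markers were 2.54 to 4.65 off drug, 1.69 to 6.66 on drug and 2.03 to 3.67 in controls, and 0 markers of either list were called in any comparison (for B cells, 4 were higher on drug against control at an unadjusted p below 0.05 in edgeR's test). The 5 fibroblast markers had summed CPM of 2466 to 2766 off drug, 2482 to 2738 on drug and 2428 to 3035 in controls, with 2 (Pi16 and Dpt) lower and 0 higher off drug against on drug and 0 called in the other comparisons (1 lower off drug and 1 higher on drug against control at an unadjusted p below 0.05 in edgeR's test). Smooth muscle markers summed to 17075 to 19577 CPM off drug, 17782 to 20461 on drug and 15594 to 18079 in controls. Of the 5, Smtn was higher and Cnn1 lower off drug against on drug, Smtn and Myh11 were higher off drug against control, and Myh11 was higher on drug against control. Fat markers summed to 24.4 to 214.6 CPM off drug, 95.6 to 189 on drug and 45 to 285 in controls, with 0 called and 0 at an unadjusted p below 0.05 in edgeR's test. Skeletal muscle markers summed to 5.89 to 16.7 CPM off drug, 6.82 to 9.42 on drug and 4.55 to 5.82 in controls, with Mylpf higher off drug against on drug, Ckm higher off drug against control, and Ckm and Tnnt3 higher on drug against control. The part of these cell types in the levels of the mitotic genes was not tested.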

How the data were processed

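For each of 12 libraries the authors deposited unnormalized counts of reads per gene, counted by featureCounts 1.4.6-p3 against GENCODE M13 with no strand set, and with multimapping reads and reads over several genes counted for each, per the file headers. STAR 2.5.3a built the alignment index, per the file headers. The submitters' processing notes name the build GRCm38. The deposited series table gives log2 values, recomputed here as log2 of the count over DESeq2's size factor plus 1 and equal within 0.001 for all 50600 genes, and served here for gene symbols only. A further table of fewer genes was not used here. Totals were 41524501 to 109423243 counts, and the part of depth in the results was not tested.

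The filterByExpr function (10 counts, 15 in total) set which genes were tested. edgeR 4.0.16 (R 4.3.3) fitted 1 quasi-likelihood model with TMM scaling, robust estimation and 3 groups to all 12 libraries. The 3 contrasts were tested two-sided with Benjamini-Hochberg adjustment over 24660 genes. Errors beside CPM and RPKM are SDs and beside log2 fold changes SEs, from the F statistic. The 95% intervals are from the t distribution with 9 degrees of freedom. The edgeR test used more degrees of freedom, so the intervals are wider than its p-values imply. Class levels are means of log2 CPM (prior count 2). Exon overlap came from the exon positions given with the deposited counts, so from the annotation counted on. The design text speaks of 4 mice a group, and no label ties a library to an animal, so the p-values measure the spread between libraries.

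Members and lists were chosen with earlier results of these data known, and 1 gene of the replication fork and nucleotide supply list is not reported here. Values in every library are given for 13 fixed members and the 8 other called members with the smallest adjusted p, and other genes are named where they were called or complete a group. Alternatives were other scaling, filters, DESeq2 1.42.0, limma-voom (limma 3.58.1), a non-robust fit, fits to only the compared pair of groups, a replicate block and each library left out. Of these steps only the main edgeR fit was run on simulated counts with known changes.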

Additional observations from a re-analysis of the deposited data

Results flagged for a closer look

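In 111 groups of 4 libraries, each a group's values of one member or class mean, 4 held a library far from the other 3 by Dixon's ratio at its 95% critical value. Chance alone gives about 1 in 20. Ccnb2 had 1.14 CPM in off-drug replicate 3, and 0.490 to 0.600 CPM in the other off-drug libraries. Cdk1 had 0.552 CPM in off-drug replicate 4, and 1.43 to 1.52 CPM in the others. Prc1 had 8.30 CPM in on-drug replicate 3, and 5.55 to 5.84 CPM in the others. The mean log2 CPM of the 26 mitotic genes was 1.96 in on-drug replicate 3, and 1.61 to 1.64 in the other on-drug libraries, and this library had the lowest total count. The part of depth in this was not tested.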

How the results depend on the processing

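Off drug against on drug, the members called lower numbered 19 and stayed at 17 to 22 over the settings that kept all libraries, and at 14 to 19 with each library left out. The 17 came from the stricter filter. The 1 member called higher, Mcm4, was called in all of them. Replication genes called lower went to 2 with DESeq2 and 2 with limma-voom, and were 0 to 1 with each library left out. On drug against control, members called higher (5) became 10 with DESeq2 (9 mitotic, 1 replication) and 9, all mitotic, with the replicate block, and were 1 to 6 with each library left out (mitotic 1 to 6, replication 0 to 1). Members called lower (0) became 1, the mitotic Bub1b, with the stricter filter and 1 with DESeq2. Off drug against control, members called higher (1, Mcm4) became 2, replication genes both, with library size alone, with the stricter filter, with DESeq2 and with only the compared groups, and were 1 to 3 with each library left out. Members called lower (9, all mitotic) ranged from 6 to 11 over settings that kept all libraries and from 3 to 12 with each library left out. Apart from genes that a filter left out, the cause of these moves was not tested.

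The labels do not say that replicate numbers pair the libraries. Deviations from the group means of same-numbered libraries correlated at -0.08 to 0.07 (median -0.01, 0 of 12 pairs over 0.1). Those of libraries with other numbers correlated at -0.11 to 0.11 (3 of 36 pairs over 0.1). Such correlations cannot show that no pairing exists. With the replicate block the mitotic genes called lower were 19 off drug against on drug and 11 off drug against control. The mitotic minus replication level kept its sign, at -1.01 to -0.89 off drug against on drug, -0.76 to -0.60 off drug against control and 0.20 to 0.36 on drug against control with each library left out, a choice made after seeing the data. No called value changed its sign. Over all members, 24 values of 13 members that were not called turned sign, 21 of them with a library left out. With each library left out, Plk1 ran -0.17 to 0.25 and Rrm2 -0.10 to 0.25 off drug against control, Mcm6 -0.0027 to 0.13 off drug against on drug, and on drug against control Aurkb -0.019 to 0.36, Anln -0.025 to 0.13, Mcm4 -0.020 to 0.091 and Mcm5 -0.12 to 0.091. Plk1 was at -0.092 off drug against control in limma-voom. Among the 21 members named with values, 31 of the recomputed values gained a call and 47 lost one, 39 of them with a library left out. Birc5 (7 to 124 counts in a library), Bub1 (22 to 88), Plk1 (17 to 58), Aurka (16 to 97) and Aurkb (38 to 116) had few counts. The part of depth in their results was not tested.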
